A study of Homo sapiens with 25 samples.

Results

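The G2/M and mitosis genes described here are a list of 56 genes whose products drive cells from late G2 through mitosis and cytokinesis. They were taken by name from a list that was chosen with earlier results of these data known. All 56 had a probe set that names a single gene on the arrays, and 55 of them were among the 12643 genes tested, out of 19775 genes with such a probe set. INCENP, the scaffold of the chromosomal passenger complex, was the gene left out, since its log2 values of 1.95 to 2.77 on the 25 arrays were too low to test. Each gene was read from 1 probe set, the one with the highest mean over the 25 arrays.

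The 25 Affymetrix expression arrays hold total RNA from cultured human breast cancer lines given the EGFR kinase inhibitor erlotinib at 10 µM. BT20, an EGFR-rich line, was sampled at 0 min (n = 4), 30 min (n = 3), 6 h (n = 3) and 24 h (n = 3). MDA-MB-453, which expresses ERBB2, was sampled at 0 min (n = 3) and 24 h (n = 3), as was a line labelled only MCF (n = 3 and 3). Cells of all 8 groups had been plated for 24 h in medium with 10% serum before the drug, and the labels name no gene change in any of them. No untreated culture was carried to a later time, so drug and time in culture cannot be told apart in any comparison below. The labels do not say whether replicates were separate cultures, so p-values measure only the spread between these samples, which may be technical. The labels place MCF in a second part of the study, where the 75th percentiles of the log2 values were 7.27 to 7.32. In the first part they were 7.65 to 7.81. Levels of the members are therefore not compared across the parts. Marker levels are set side by side below only as a coarse check of the labels.

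Entry into mitosis depends on cyclin B bound to CDK1, which WEE1 and PKMYT1 restrain and the CDC25 phosphatases release. Polo-like and Aurora kinases then build the spindle, the BUB and MAD proteins hold anaphase until kinetochores are attached, and CDC20 turns on the anaphase-promoting complex that destroys cyclin B and securin. Many of these genes are transcribed together late in the cycle by the MuvB complex with MYBL2 and FOXM1, and are silenced in resting cells by the DREAM complex, which is MuvB with an E2F and a p107 or p130 protein. EGFR signalling through ERK mainly acts earlier, on the passage from G1 into S phase. In such bulk RNA, fewer cells in a cell cycle phase and less RNA per cell cannot be told apart.

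The markers of each label were high in its line, though some were also high in other lines. The 5 epithelial genes EPCAM, CDH1, KRT8, KRT18 and KRT19 had group means of 10.24 to 13.55 in every group. At 0 min EGFR and KRT5 had means of 12.38 and 12.37 in BT20, against 3.53 and 2.86 in MDA-MB-453. ERBB2 and PIP were at 11.07 and 10.78 in MDA-MB-453 and at 8.15 and 3.04 in BT20. ESR1, TFF1 and GATA3 were at 12.47, 13.49 and 13.20 in MCF. GATA3 was also at 12.98 in MDA-MB-453 and 11.13 in BT20, TFF1 at 8.49 in MDA-MB-453 and ESR1 at 8.66 in BT20. The 4 blood cell genes stayed below 4 on every array. Of the endothelial and fibroblast genes, CDH5 in BT20 (11.13 at 0 min) and COL1A1 in all lines (7.96 to 11.18) were high, COL3A1 was at 5.08 and 5.36 in MCF, PECAM1 was at 3.60 in BT20 at 0 min and 4.61 at 24 h, while KDR, VWF, PDGFRB, DCN and LUM were below 4 everywhere. One BT20 array at 0 min, replicate 4, stood apart from its group. Over the tested genes its correlation with the 6 h arrays was 0.990 to 0.992, with 0 min replicates 1 to 3 it was 0.971 to 0.975, and with the 24 h arrays it was 0.954 to 0.957. Replicate 4 lay above all of replicates 1 to 3 in 33 of the 55 mitosis genes (37.9% of all genes) and below them in 10 (41.9%), with a median difference of 0.18 on the log2 scale. BT20 results are therefore given with it, in most comparisons without it and, for 6 h, against it alone.

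Since members of this group are known to be transcribed together, the promoters of 4 that the results turn on are shown, as the 250 bases before the annotated start, 5′ to 3′ on the gene's strand, from RefSeq (GRCh38.p14). Capitals mark TTTGAA, the core of the cell cycle genes homology region that MuvB recognises, and CCAAT, the box bound by NF-Y, on either strand (TTCAAA and ATTGG on the other). The windows are chr5:163460382-163460631 for HMMR, chr15:59104896-59105145 for CCNB2, chr2:26785806-26786055 for CENPA and chr1:43358731-43358980 for CDC20, all on the plus strand. In HMMR, 1 CCAAT and 1 ATTGG overlap.
HMMR: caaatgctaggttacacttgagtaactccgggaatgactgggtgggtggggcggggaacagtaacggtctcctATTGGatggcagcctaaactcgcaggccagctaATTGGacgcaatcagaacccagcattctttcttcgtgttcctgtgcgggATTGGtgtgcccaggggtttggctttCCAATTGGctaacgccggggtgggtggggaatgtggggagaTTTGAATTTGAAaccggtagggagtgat
CCNB2: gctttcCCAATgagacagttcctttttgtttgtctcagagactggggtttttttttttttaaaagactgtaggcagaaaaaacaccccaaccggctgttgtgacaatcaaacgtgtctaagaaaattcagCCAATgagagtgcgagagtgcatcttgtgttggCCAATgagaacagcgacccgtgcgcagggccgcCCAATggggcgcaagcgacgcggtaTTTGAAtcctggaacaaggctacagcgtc
CENPA: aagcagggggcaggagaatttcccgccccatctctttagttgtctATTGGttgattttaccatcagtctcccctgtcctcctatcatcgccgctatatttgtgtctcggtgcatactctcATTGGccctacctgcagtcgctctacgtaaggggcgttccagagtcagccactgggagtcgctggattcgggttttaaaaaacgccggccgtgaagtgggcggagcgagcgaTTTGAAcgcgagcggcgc
CDC20: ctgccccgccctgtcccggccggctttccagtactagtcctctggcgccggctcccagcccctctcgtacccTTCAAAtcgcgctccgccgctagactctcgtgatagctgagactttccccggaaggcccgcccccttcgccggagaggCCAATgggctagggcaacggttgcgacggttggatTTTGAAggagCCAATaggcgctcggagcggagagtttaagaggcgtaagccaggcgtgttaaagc
HMMR, CCNB2 and CENPA were higher after erlotinib in BT20 at both 6 h and 24 h with all 4 controls. CDC20 was lower at 6 h, and its window holds the same kinds of motif. RefSeq promoter entries were matched for 48 of the 56 genes, and not for AURKA, BIRC5, BUB3, FOXM1, RACGAP1, TPX2, TTK and UBE2C. Over windows of 300 bases, 250 before and 50 after the start, TTTGAA was present in 33 of the 48 (68.8%), against 15.2% of all 35116 promoters and 9.75% of the 10315 promoters of tested genes. CCAAT was present in 35 (72.9%), against 34.6% and 36.9%, and 22 (45.8%) had 2 or more, against 10.8% and 13.9%. Both motifs were present in 26 (54.2%), against 5.9% and 4.17%. The window of CDC25C, the member with the greatest 24 h rise in BT20, held neither set of letters. Bases outside the windows were not searched, and letters near a start other than the annotated one would be missed. A match is a description of the sequence and not a binding site.

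After 24 h of erlotinib, BT20 cells held more of the transcripts for 15 of the 55 mitosis genes and less of 1, and the other 39 did not pass the test. The rises included CDC25C, HMMR, CENPA and KIF20A, and the median over the 55 was 0.12 on the log2 scale, against 0.03 over all tested genes. Called here means an adjusted p below 0.05 in limma's moderated test over the 12643 genes. Among all genes, 24.1% were called higher and 18.3% lower, against 27.3% and 1.82% of the members. The share of rises was thus near the background, and the share of falls was below it. Without replicate 4, 20 members (36.4%) were called higher and 2 (3.64%) lower, with a median of 0.17, against a background of 30.6% and 24.9%. All 16 members called with replicate 4 were also called without it. The count of rises fell to 9, 8 and 9 without 24 h replicate 1, 2 or 3.

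The counts by role below are to be read against the 24.1% of all genes called higher and the 18.3% called lower. The cyclin-CDK core held the greatest change. CDC25C, the phosphatase that removes the inhibitory phosphates from CDK1, had log2 values of 7.88, 8.07, 7.60 and 8.13 at 0 min, 7.92, 7.68 and 7.53 at 30 min, 9.04, 9.21 and 8.68 at 6 h, and 9.20, 9.32 and 9.44 at 24 h. Every 6 h and 24 h array lay above every 0 min array, replicate 4 included. The 24 h rise was 1.40 ± 0.16 (SE; n = 3 and 4; 2.65-fold; adjusted p = 1.78e-05), and the other 2 CDC25C probe sets rose by 1.37 and 1.48. CCNB2, a B-type cyclin, had 11.48, 11.28, 11.39 and 11.44 at 0 min and 11.88, 11.79 and 11.86 at 24 h, with no overlap, a difference of 0.45 ± 0.08 (SE, adjusted p = 0.000639). The other cyclins did not pass on the probe sets used: CCNB1 differed by 0.14 ± 0.08 and CCNA2, the S and G2 cyclin, by -0.03 ± 0.11. A second probe set differed by 0.45 for CCNB1 and by -0.33 for CCNA2, so their levels also depended on the probe set. CDK1 itself differed by 0.05 ± 0.09 on the probe set used. Its 3 other probe sets differed by -0.46, -0.46 and -0.57 at 24 h, so the level of CDK1 depended on the probe set.

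Among the mitotic kinases and their activators, HMMR and TPX2, both microtubule-bound partners of Aurora A, rose. HMMR had 10.36, 10.41, 10.72 and, in replicate 4, 11.14 at 0 min, and 11.38, 11.29 and 11.29 at 24 h. The groups did not overlap, though replicate 4 lay near the 24 h arrays. The rise was 0.66 ± 0.16 (SE, adjusted p = 0.00548) with replicate 4 and 0.82 ± 0.11 without it. TPX2 rose by 0.38 ± 0.13 (adjusted p = 0.0343) with replicate 4 and by 0.51 without it. Replicate 4, at 11.56, lay among its 24 h values of 11.50, 11.57 and 11.60, so the groups overlapped. Replicates 1 to 3 were all lower, at 11.14, 11.07 and 10.91. The kinases PLK1, AURKA and NEK2 did not pass, with differences of -0.11 ± 0.13, 0.14 ± 0.08 and 0.23 ± 0.11.

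None of the 5 spindle checkpoint genes passed at 24 h with all arrays, where 24.1% of all genes were called higher and 18.3% lower. On the probe sets used, their changes ran from -0.21 to 0.16, and BUB1, a checkpoint kinase, differed by 0.16 ± 0.11. Without replicate 4, BUB1 and BUB1B were called higher, at 0.25 and 0.24. Other probe sets gave lower values, with -0.77, -0.92 and -0.98 among those of BUB3 and -0.65 for 1 of MAD2L1. Of the anaphase genes, PTTG1, which encodes securin, rose by 0.36 ± 0.13 (adjusted p = 0.0431), and CDC20 differed by 0.61 ± 0.26 without passing. On the probe sets used, the chromosomal passenger genes stayed close to 0, with AURKB at -0.00 ± 0.10 and BIRC5, which encodes survivin, at 0.14 ± 0.08. The other probe set of AURKB differed by -0.51, and those of BIRC5 by 0.07, 0.37 and -0.22.

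Of the 8 centromere and kinetochore genes, 4 rose, where 24.1% of all genes were called higher. CENPA, the histone H3 variant that marks centromeres, had 6.80, 6.86, 6.80 and 7.23 at 0 min and 7.64, 7.77 and 7.70 at 24 h. All 24 h arrays were higher than all 0 min arrays, by 0.78 ± 0.12 on average (SE; 1.72-fold; adjusted p = 0.000199). CENPF rose by 0.47 ± 0.15, and NDC80 and NUF2, which pair in the complex that grips microtubules, rose by 0.43 ± 0.09 and 0.22 ± 0.08. The partners of that complex, SPC24 and SPC25, differed by 0.36 ± 0.15 and -0.03 ± 0.14, and SPC24 was called only without replicate 4, at 0.53.

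KIF14, KIF15 and KIF20A rose among the 9 mitotic kinesins, where 24.1% of all genes were called higher. KIF20A, a motor of the central spindle, had 9.19, 9.24, 8.54 and 10.09 at 0 min and 10.16, 10.23 and 10.03 at 24 h. Replicate 4 lay among the 24 h arrays, so the groups overlapped, while replicates 1 to 3 were all lower. The rise was 0.88 ± 0.27 (adjusted p = 0.0199) with replicate 4 and 1.15 ± 0.18 without it. KIF23, its neighbour in the central spindle, differed by -0.31 ± 0.26 with it and 0.01 ± 0.11 without it, and KIF11, the motor that pushes spindle poles apart, by 0.09 ± 0.17.

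NUSAP1 and ASPM, spindle proteins that bind microtubules, rose by 0.23 ± 0.08 and 0.43 ± 0.09, and DLGAP5 was called only without replicate 4, at 0.70. No cytokinesis gene passed on the probe sets used, and ANLN, which encodes anillin, differed by -0.32 ± 0.13. The other probe set of ANLN differed by -0.81, and those of ECT2 by -0.08 and 0.06. On the probe sets used, TOP2A, which untangles sister chromatids, differed by 0.13 ± 0.12, with the other 4 chromosome structure genes between -0.25 and 0.09. Other probe sets of SMC4 differed by 0.04 and -0.97. MKI67, the source of the Ki-67 antigen, was the only member called lower with all arrays. It had 9.49, 9.62, 9.52 and 9.53 at 0 min and 9.27, 9.33 and 9.27 at 24 h, a fall without overlap of -0.25 ± 0.08 (adjusted p = 0.0225). Its 3 other probe sets differed by 0.16, 0.14 and -0.25, so its direction depended on the probe set. Of the transcription factors, FOXM1 rose by 0.40 ± 0.10 (adjusted p = 0.00806), and MYBL2 differed by -0.32 ± 0.17, being called lower only without replicate 4, at -0.49.

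**Figure D1:**
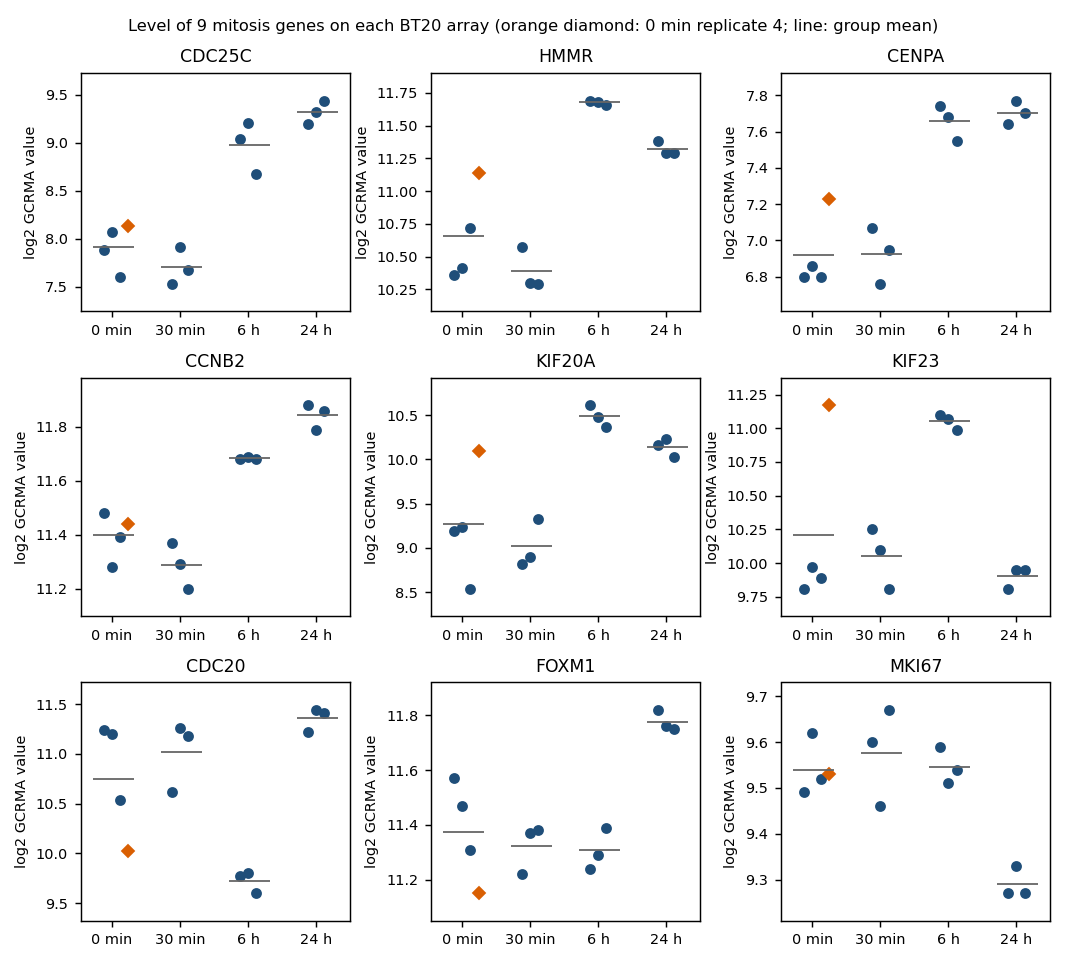
Log2 GCRMA value (vertical axis) of 9 mitosis genes on each of the 13 BT20 arrays, by time after erlotinib, with points for arrays, lines for group means and an orange diamond for 0 min replicate 4. CDC25C and CENPA are higher at 6 h and 24 h on every array, and for KIF23 replicate 4 (11.17) lies with the 6 h arrays (10.99 to 11.10).

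The G1/S and replication list, whose genes act before and during S phase, was mostly lower at 24 h. The counts of all lists are to be read against the 24.1% of all genes called higher and the 18.3% called lower, or 30.6% and 24.9% without replicate 4. Of the 46 tested G1/S and replication genes, 33 were called lower and 1 higher, with a median of -0.54, and without replicate 4 these were 37 and 1. CDC6, which licenses replication origins, fell by 1.26 ± 0.17, and TIPIN, MCM10, E2F2 and GINS2, the 4 with the smallest p, fell by 1.15, 1.14, 0.68 and 0.69. TK1 was the 1 that rose, by 0.25 ± 0.09. A second list of 73 mitosis genes, 72 of them tested, had 10 called higher and 7 lower and a median of 0.07, or 18 and 11 without replicate 4. NCAPD2, PSRC1, PIF1 and CEP55 rose by 0.56, 0.53, 0.97 and 0.33, and SKA3, CENPL and PLK4 fell by 0.58, 0.50 and 0.43. In the anaphase-promoting complex list 1 of 16 fell, FBXO5, the early mitotic inhibitor of the complex, by 0.53 ± 0.13. Without replicate 4 that list had 5 falls, of FBXO5, ANAPC15, ANAPC5, UBE2S and ANAPC2, and 1 rise, of ANAPC16.

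Among 8 tested CDK1 inhibitors and brakes, 2 rose and 2 fell. CCNG2, an atypical cyclin tied to arrest, and GADD45B rose by 2.33 ± 0.26 and 2.48 ± 0.20, whereas GADD45A and PKMYT1, the membrane-bound kinase that restrains CDK1, fell by 1.04 ± 0.15 and 0.88 ± 0.23. Without replicate 4 there were 3 rises and 4 falls, with CDKN1B added to the rises and CDKN1A and SFN to the falls. The 12 DREAM and MuvB genes gave 3 rises and 3 falls, or 3 and 4 without replicate 4. RBL2, which encodes the p130 protein of resting cells, rose by 0.79 ± 0.11, and LIN37 and TFDP2 also rose. RBL1, which encodes p107, fell by 0.66 ± 0.12, and the MuvB genes LIN9 and LIN52 fell by 0.93 ± 0.27 and 0.57 ± 0.09. All 16 ERK output genes fell, with and without replicate 4. DUSP6 and SPRY4 went from means of 9.19 and 7.25 at 0 min to 3.27 and 2.49 at 24 h, below the level of 4 used to filter genes, so the size of their falls is not given.

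**Figure D2:**
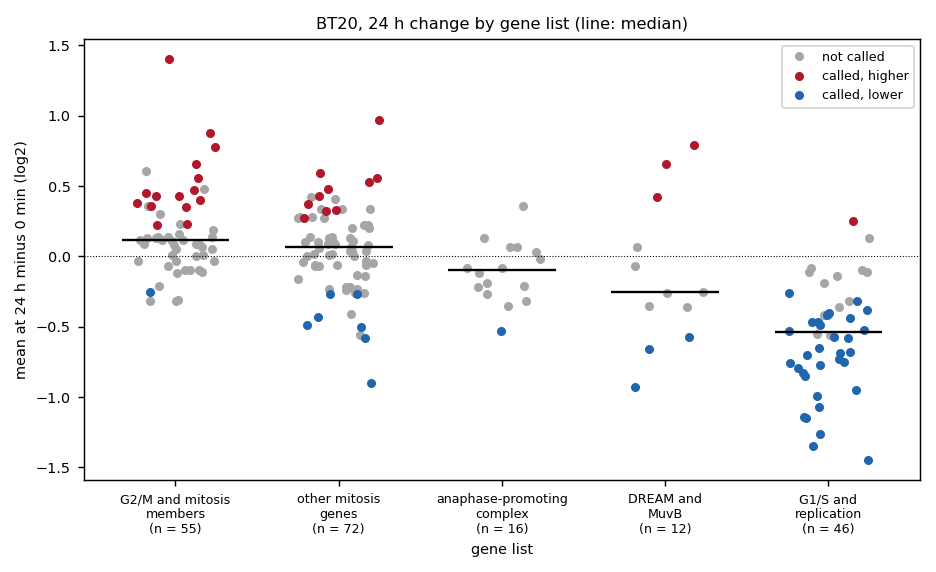
Change in BT20 from 0 min to 24 h (vertical axis, log2, all arrays) for each tested gene of 5 lists (horizontal axis), with points coloured by call and lines at the medians. The median of the 55 members is 0.12 and that of the 46 G1/S and replication genes is -0.54.

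At 6 h the members' values depended on which 0 min arrays served as the control. Against all 4, 34 of the 55 members were called higher and 2 lower, with a median of 0.37 against -0.01 over all genes. In all genes 26.1% were called higher and 25.9% lower, against 61.8% and 3.64% of the members. Without replicate 4 the counts were 37 and 6 (background 32.8% and 33.7%). Against replicate 4 alone, fitted as a term shared by that array and the 6 h arrays, they were 5 and 0, with a median of 0.21 and a background of 3.62% and 3.61%. That comparison rests on 1 control array, which is assumed to vary like the other BT20 groups. All 6 h arrays lay above replicate 4 in 40 members (37.9% of all genes) and below it in 7 (34.4%), and above all of replicates 1 to 3 in 41 (35.2%). Of the 34 members called higher, KIF23 alone had a 6 h mean below replicate 4. Replicate 4 was close to the 6 h arrays over all genes too, as given above, and its part in the result beyond these values was not tested.

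The 5 members called higher against replicate 4 were CDC25C (0.84 ± 0.22, adjusted p = 0.0355), NEK2 (0.63 ± 0.16), CENPF (0.46 ± 0.11), NDC80 (0.45 ± 0.12) and KIF14 (0.46 ± 0.11). NEK2, a kinase that separates centrosomes, had 10.64, 10.54, 10.84 and 10.78 at 0 min, 11.42, 11.28 and 11.52 at 6 h, and 10.89, 10.98 and 10.91 at 24 h. Its 6 h arrays were higher than every other BT20 array, and the 6 h rise against all controls was 0.71 ± 0.11 (adjusted p = 0.000755). CENPF did not pass against all controls (-0.06 ± 0.15). Its replicate 4 value of 11.16 lay below the other 0 min values of 11.92, 11.82 and 11.81, with 6 h values of 11.58, 11.56 and 11.71 in between. On this probe set the direction of CENPF at 6 h therefore followed the choice of control, whereas a second probe set differed by 0.43 with all controls and 0.50 against replicate 4.

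With all 4 controls, 8 of 9 kinesins, 4 of 5 spindle checkpoint genes, 6 of 8 centromere and kinetochore genes and 3 of 3 cytokinesis genes rose at 6 h, against 26.1% of all genes. In the other roles 3 of 6 cyclin-CDK genes, 2 of 5 kinases and activators, 4 of 5 spindle assembly genes, 3 of 5 chromosome structure genes and 1 of 3 passenger genes rose, and none of the 4 anaphase genes or the 2 transcription factors. The greatest rises were those of KIF20A (1.22 ± 0.27), CDC25C (1.06 ± 0.16), HMMR (1.01 ± 0.16), DLGAP5 (0.86 ± 0.19) and KIF15 (0.85 ± 0.18). HMMR had 11.69, 11.68 and 11.66 at 6 h, above all 0 min values listed above. For KIF20A the 6 h values were 10.61, 10.48 and 10.37, also above all 4 controls, although replicate 4 at 10.09 lay much nearer to them than replicates 1 to 3. KIF23, a subunit of centralspindlin, had 9.81, 9.97, 9.89 and, in replicate 4, 11.17 at 0 min, and 11.10, 11.07 and 10.99 at 6 h. Its rise of 0.84 ± 0.26 (adjusted p = 0.0196) with all controls became -0.12 against replicate 4. The rises of BUB1 (0.49 ± 0.11), TOP2A (0.51 ± 0.12) and CDK1 (0.37 ± 0.09) were 0.22, 0.27 and 0.32 against replicate 4 and did not pass there. Other probe sets of CDK1 differed by 0.02, 0.03 and 0.15 against replicate 4, those of MAD2L1 by -0.62 and -0.25, and that of TOP2A above the filter by 0.29. Those of BUB1 above the filter differed by 0.12, -0.02 and -0.09. With all controls, 23 of the 24 other probe sets of called members had the same sign, the exception being 1 of SMC4. On the probe sets used, CCNB1, CCNA2, PLK1, AURKA, AURKB, BIRC5, FOXM1 and MKI67 did not pass with all controls.

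The 2 members called lower at 6 h were CDC20 and MYBL2. CDC20, which activates the anaphase-promoting complex, had 11.24, 11.20, 10.54 and, in replicate 4, 10.02 at 0 min, 9.77, 9.80 and 9.60 at 6 h, and 11.22, 11.44 and 11.41 at 24 h. The 6 h arrays were the lowest in BT20, and replicate 4 was next to them. The fall was -1.02 ± 0.26 (adjusted p = 0.00741) with all controls and -0.30 against replicate 4, where it did not pass. MYBL2, a partner of MuvB in S and G2 phase, had 10.75, 10.65, 11.12 and 10.15 at 0 min and 10.11, 10.17 and 10.27 at 6 h, where replicate 4 lay among the 6 h arrays. Its fall of -0.49 ± 0.17 (adjusted p = 0.0319) became 0.03 against replicate 4, and its call with all arrays was lost without any 1 of the other 6 arrays. Of the other members with a lower 6 h mean, KIF2C differed by -0.49 ± 0.20 and ESPL1, which encodes separase, by -0.39 ± 0.24, and neither passed. Without replicate 4 KIF2C (-0.68 ± 0.14) and ESPL1 (-0.64 ± 0.16) were called lower, as were CENPF (-0.24 ± 0.08) and NCAPH (-0.38 ± 0.11).

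**Figure D3:**
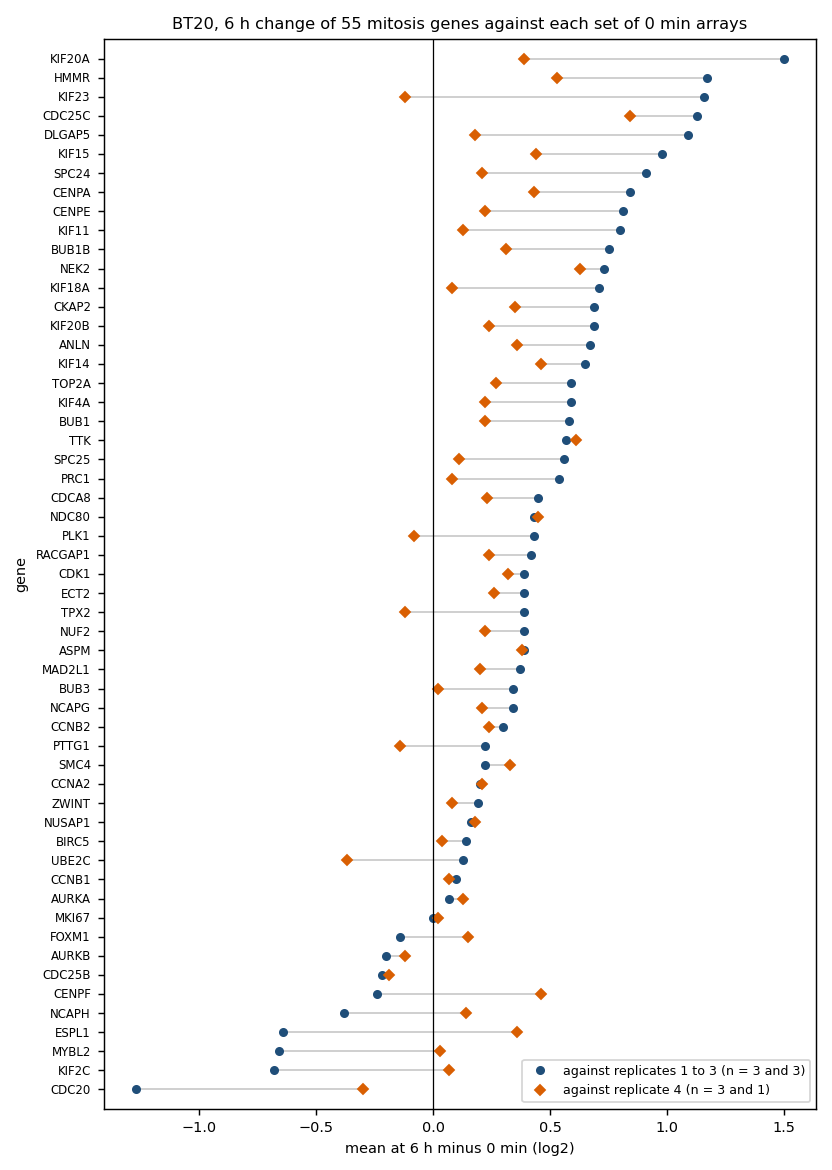
Mean at 6 h minus the 0 min value (horizontal axis, log2) for the 55 tested members in BT20, against the mean of replicates 1 to 3 (blue circles) and against replicate 4 (orange diamonds). Most diamonds lie nearer to 0 than the circles, with CDC25C at 0.84, NEK2 at 0.63 and KIF23 at -0.12 against replicate 4.

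The second list of mitosis genes had 32 rises and 8 falls of 72 at 6 h with all controls (background 26.1% and 25.9%), and 2 rises against replicate 4 (background 3.62%). These were SGO2, which protects centromeric cohesin (1.12 ± 0.12, and 1.07 ± 0.17 against replicate 4), and CENPH (1.28 ± 0.16 and 0.78 ± 0.14). The G1/S and replication list had 7 rises and 16 falls of 46, with E2F8 up by 0.97 ± 0.20 and CDC6 by 0.65 ± 0.17. Against replicate 4, CDC25A alone of that list passed, as a fall. Of the DREAM and MuvB genes 8 of 12 rose and 1 fell, and LIN37 alone rose against replicate 4 (0.50 ± 0.13). Among the CDK1 inhibitors and brakes 3 rose and 4 fell of 8, and CCNG2 rose by 2.75 ± 0.26, or 1.84 ± 0.16 against replicate 4. The other called genes of this list also had smaller differences against replicate 4. WEE1 went from 0.70 to 0.32 and CDKN1B from 0.93 to 0.39. PKMYT1 went from -1.01 to -0.51, GADD45A from -0.80 to -0.31, SFN from -0.38 to -0.12 and CDKN1A from -1.09 to 0.05. In the anaphase-promoting complex list 4 rose and 7 fell of 16. UBE2S, its chain-elongating enzyme, fell by 1.74 ± 0.30 with all controls and by 0.62 ± 0.16 against replicate 4. Of the ERK output genes 15 of 16 fell.

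From 6 h to 24 h, 24 members were called lower and 4 higher, with a median of -0.28 against 0.05 over all genes (background 24% lower and 29.6% higher). CDC20, CDC25B, CENPF and FOXM1 were the 4 higher, by 1.63 ± 0.28, 0.51 ± 0.18, 0.53 ± 0.16 and 0.47 ± 0.11. KIF23 and ANLN fell most, by 1.15 ± 0.28 and 0.91 ± 0.14, followed by KIF18A, KIF20B and KIF11 at -0.65, -0.61 and -0.54. CDC25C, HMMR, CENPA, KIF20A and CCNB2 did not pass, with differences of 0.35 ± 0.17, -0.36 ± 0.17, 0.05 ± 0.13, -0.34 ± 0.29 and 0.16 ± 0.09. With a term shared by replicate 4 and the 6 h arrays, 1 member, ANLN, was called lower and TPX2, PTTG1 and DLGAP5 were called higher (background 10.7% lower and 15.5% higher). The count of falls was 11, 15 and 15 without 24 h replicate 1, 2 or 3, and 14 and 11 without 6 h replicate 1 or 3. BUB1, KIF23, TOP2A and MKI67 each had another probe set of the opposite sign in this comparison.

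**Figure D4:**
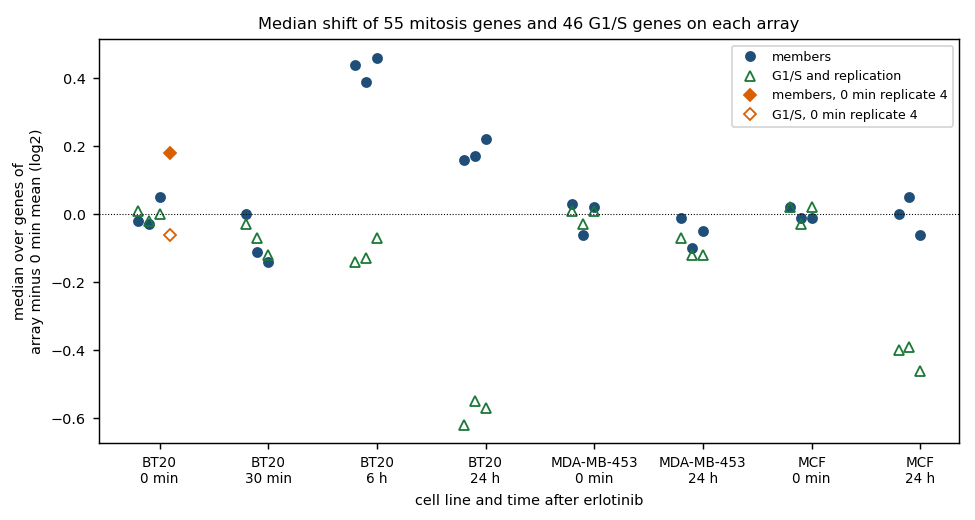
Median over genes of each array's log2 value minus the 0 min mean of its line (vertical axis; for BT20 the mean of 0 min replicates 1 to 3), for the 55 members (filled) and the 46 G1/S and replication genes (open), by line and time. The member medians are 0.39 to 0.46 at 6 h and 0.16 to 0.22 at 24 h in BT20, 0.18 on 0 min replicate 4, and -0.10 to 0.05 at 24 h in the other lines.

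At 30 min no member passed, and 1 of the 12643 genes did (0.00791%, called lower). The changes ran from -0.37 for DLGAP5 to 0.27 for CDC20, with a median of -0.13, or -0.08 without replicate 4. At an unadjusted p below 0.05 there were 4 members with all arrays and 0 without replicate 4.

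In MDA-MB-453 at 24 h, 2 of the 55 members were called, PLK1 and MYBL2, and both fell. In all genes 2.64% were called lower and 5.66% higher, against 3.64% and 0 of the members, so the share of falls was near the background. PLK1 had 7.47, 7.60 and 7.66 at 0 min and 7.16, 7.07 and 7.17 at 24 h, a fall without overlap of -0.44 ± 0.09 (SE, n = 3 and 3, adjusted p = 0.0371). MYBL2 had 9.34, 9.33 and 9.53 at 0 min and 8.78, 8.89 and 8.69 at 24 h, also without overlap, a fall of -0.61 ± 0.10 (adjusted p = 0.0193). Neither was called without 24 h replicate 1 or without any 1 of the 0 min replicates, and MYBL2 alone of the pair was called without 24 h replicate 2 or 3. With all 25 arrays in 1 fit neither was called (adjusted p = 0.299 and 0.122), and MKI67 was (-0.60 ± 0.16, adjusted p = 0.0277). The median over the members was -0.04, and the genes that rose in BT20 gave 0.44 ± 0.23 for CDC25C, 0.31 ± 0.11 for HMMR and -0.34 ± 0.19 for KIF20A here. In the 6 other lists 1 of 72 mitosis genes (NEK6), 1 of 46 G1/S genes (CDC25A) and 2 of 16 ERK output genes (EGR1 and DUSP5) fell, and no gene of the other 3 lists passed.

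In MCF at 24 h no member passed, and 1 of all 12643 genes did. At an unadjusted p below 0.05 there were 3 members, among them CCNB2, at 0.57 ± 0.14 (adjusted p = 0.455). With all 25 arrays in 1 fit CCNB2 was called higher, at 0.57 ± 0.11 (adjusted p = 0.00457). The background of that fit was 1.17% higher and 2.02% lower. An earlier fit to all 25 arrays gave many false calls for MCF in simulated data, so this call is not relied on. CCNB2 had 9.16, 9.32 and 9.17 at 0 min and 9.81, 9.84 and 9.71 at 24 h, without overlap. The other 2 with a low unadjusted p were SPC24 (-0.72 ± 0.24) and KIF20A (0.69 ± 0.28), with adjusted p of 0.7 and 0.847. Intervals in this line were wide, as for CDC25C (0.67, 95% interval -0.32 to 1.67), and the median SD over all genes was 0.29 and 0.30 in the MCF groups against 0.10 to 0.24 in BT20. The median was 0.01 over the members and -0.43 over the G1/S and replication genes, of which none passed. Of the other lists, 1 ERK output gene (ETV5) fell.

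**Figure D5:**
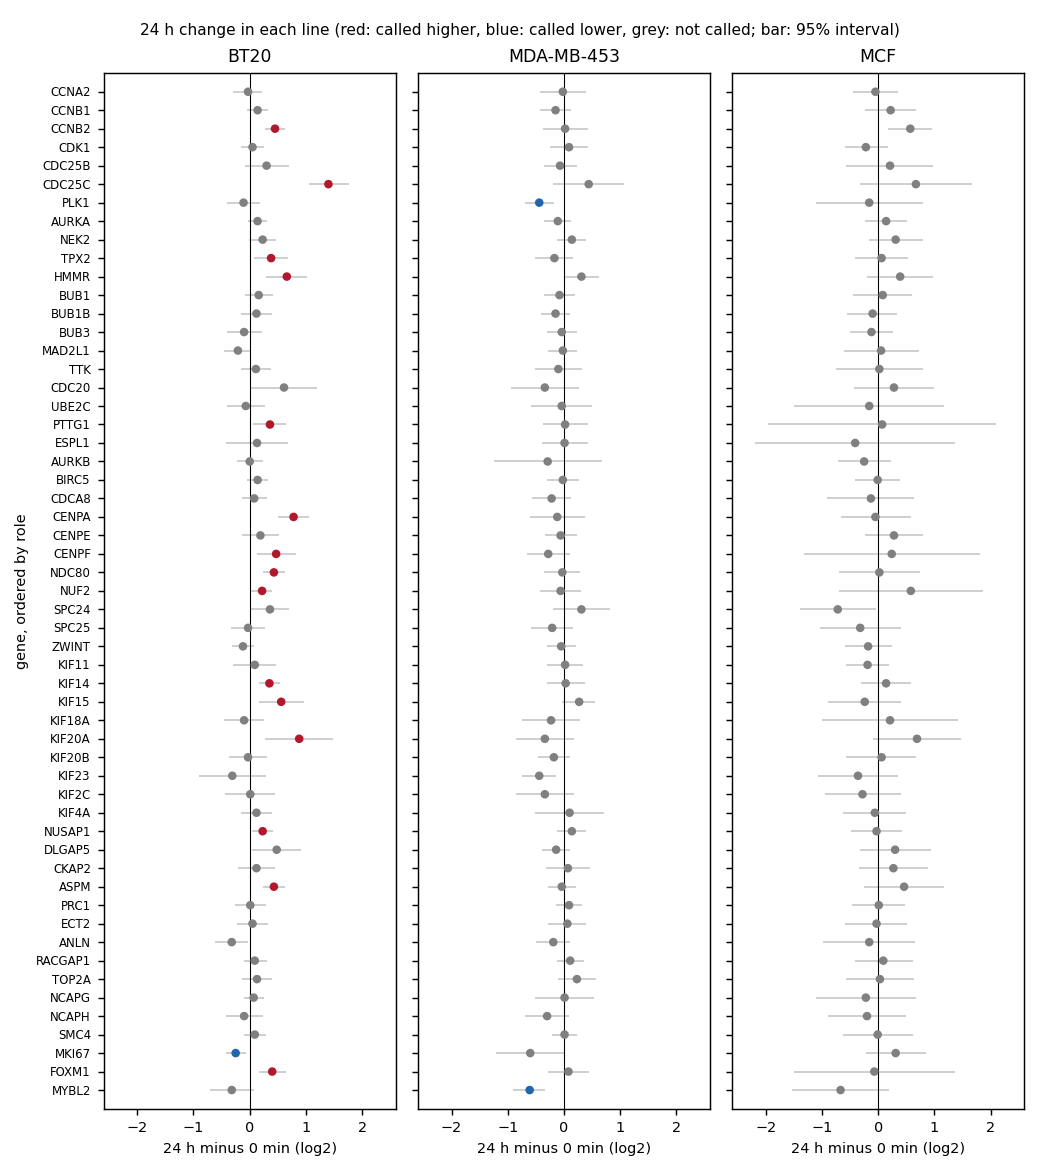
Change from 0 min to 24 h (horizontal axis, log2) of the 55 tested members in each line, with points for the estimate, bars for its 95% interval and colour for the call. BT20 has 15 called higher and 1 lower, MDA-MB-453 has 2 lower and MCF has none.

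The 24 h change itself was greater in BT20 than in MDA-MB-453 for 7 members and smaller for none. They were CDC25C (difference 0.96 ± 0.27), TPX2 (0.56 ± 0.19), CENPA (0.90 ± 0.21), CENPF (0.75 ± 0.22), NDC80 (0.46 ± 0.14), KIF20A (1.21 ± 0.37) and ASPM (0.46 ± 0.12), with adjusted p from 0.00419 to 0.044. In all genes 11.4% differed in that direction and 10.4% in the other, against 12.7% of the members, a share near the background. The median difference was 0.24 over the members and 0.01 over all genes. Without replicate 4 the count was 15 higher (background 17.4%, and 15.5% lower), and without MDA-MB-453 0 min replicate 3 it was 4. With each line given its own spread, which was added after seeing the data because the lines differed in SD, the count was 8 higher (background 12.2%) and 0 lower (background 11%), with DLGAP5 added. In CENPA, for example, BT20 rose by 0.78 while MDA-MB-453, with 4.94, 4.90 and 5.39 at 0 min and 4.78, 5.20 and 4.89 at 24 h, overlapped between its groups. For HMMR the difference did not pass with all arrays (0.35, 95% interval -0.12 to 0.82), and it did without replicate 4 (0.51, adjusted p = 0.0167).

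Between BT20 and MCF the 24 h change differed for 3 members, CENPA (0.83 ± 0.23) and SPC24 (1.08 ± 0.27) being higher in BT20 and MKI67 (-0.57 ± 0.17) lower. The background was 8.53% higher and 4.92% lower. With each line's own spread SPC24 was the 1 member that passed (background 6.61% higher and 3.58% lower), and the MKI67 difference was 0.02 when its probe sets were averaged. SPC24 had 9.42, 9.02 and 9.48 in MCF at 0 min and 8.56, 8.24 and 8.96 at 24 h, without overlap and lower, a difference of -0.72 ± 0.24 that did not pass within that line. Within BT20 the 24 h difference was 0.36 ± 0.15, which did not pass either, and replicate 4, at 9.72, lay above the 24 h arrays.

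Before the drug, 24 members were called higher in BT20 than in MDA-MB-453 and 11 lower, or 43.6% and 20% of the members against 36.7% and 37.9% of all genes. The share of members called, both directions added, was not above that of all genes. AURKB, the passenger complex kinase, had 10.23, 10.31, 10.27 and 10.20 in BT20 and 6.94, 6.78 and 7.92 in MDA-MB-453, a difference of 3.04 ± 0.22 (adjusted p = 1.4e-09). NDC80 differed by 2.57 ± 0.09, CENPA by 1.85 ± 0.14, KIF2C by 1.59 ± 0.20 and CDC20 by 1.46 ± 0.26, all higher in BT20 without overlap. KIF11, MKI67, KIF20B, KIF20A and BUB3 were the members lowest in BT20 relative to MDA-MB-453, at -1.09 ± 0.16, -1.05 ± 0.14, -0.97 ± 0.13, -0.80 ± 0.25 and -0.75 ± 0.12. CDC25C and FOXM1 were higher in BT20 already at 0 min, by 0.77 ± 0.19 and 1.02 ± 0.11. HMMR and CDK1 did not pass. These values include BT20 replicate 4. It differed from the mean of replicates 1 to 3 by 1.10 for KIF20A, 0.67 for KIF11 and -0.97 for CDC20.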

How the data were processed

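The deposited values are log2 expression values per probe set, made by the authors with GCRMA 2.20.0 in R 2.11.1, per the submitters' processing notes, and were used as deposited. Of 54613 probe sets, 41091 name 1 gene in the platform annotation, 1801 several and 11721 none. Each gene was its probe set with the highest mean, kept where above 4 on 3 or more arrays (12643 genes). Differences were tested in R 4.3.3 with limma 3.58.1 (lmFit and eBayes), separately for each line, jointly for 2 lines, with Benjamini-Hochberg adjustment over all genes. SE is the moderated standard error. The number of arrays limits the precision. Alternatives were other filters, probe set means, median centring, other spread estimates, a replicate block, a term for replicate 4 with the 6 h arrays, and leaving out each array. The fits were tested on simulated data. The members, 6 gene lists and tests were chosen with earlier results of these data known. Named members were a fixed set of 15, those called at 24 h, and up to 5 rises and 5 falls per comparison. Genes of the lists were named by smallest p, up to 4 per comparison; others named beyond this were chosen after their values were seen. Promoter sequences are from RefSeq.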

Additional observations from a re-analysis of the deposited data

Results flagged for a closer look

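In the BT20 0 min group of 4, replicate 4 lay far from the other 3 for 5 of the 55 members. It read 11.01 for BUB1 (others 10.62 to 10.68), 7.23 for CENPA (6.80 to 6.86), 9.72 for SPC24 (8.97 to 9.08), 11.17 for KIF23 (9.81 to 9.97) and, below the others, 11.16 for CENPF (11.81 to 11.92). Chance alone marks about 1 in 20 such groups, and 12.4% of all tested genes met the same criterion in this group, against 9.09% of the members.

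The 24 h change was greater in BT20 than in MDA-MB-453, by limma's test of the difference, for CDC25C (0.96), TPX2 (0.56), CENPA (0.90), CENPF (0.75), NDC80 (0.46), KIF20A (1.21) and ASPM (0.46). Against MCF it was greater in BT20 for CENPA (0.83) and SPC24 (1.08) and smaller for MKI67 (-0.57).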

How the results depend on the processing

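Counts are of members called higher or lower, and most that moved little from the main fit are left out. With all 25 arrays in 1 fit there was 1 lower at 6 h, 0 lower at 24 h, 1 higher and 15 lower from 6 h to 24 h, 1 lower in MDA-MB-453 (MKI67, not PLK1 or MYBL2), 1 higher in MCF, 2 higher for BT20 against MDA-MB-453 and 0 lower for BT20 against MCF. Same-numbered replicates did not deviate together in every pair, so the numbers are not taken as pairs. With a replicate block there were 6 lower at 6 h, 2 lower at 24 h, 7 higher from 6 h to 24 h, 0 lower in MDA-MB-453, 13 higher against MDA-MB-453 and 0 lower against MCF. With the term for replicate 4 and the 6 h arrays there were 5 higher and 0 lower at 6 h, 2 lower at 24 h, 1 lower from 6 h to 24 h and 15 higher against MDA-MB-453. Averaging probe sets gave 3 lower at 24 h, 1 lower against MDA-MB-453, and 1 higher and 0 lower against MCF. Median centring gave 2 lower at 24 h and kept 12 of the 16 calls of the main fit there. No filter gave 1 lower in MDA-MB-453, and a trended robust fit gave 0 lower against MCF. Each line's own spread, added after seeing the data, gave 1 higher and 0 lower against MCF. The cause of these shifts was not tested.

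Leaving out 1 array gave 29 to 37 higher and 1 to 6 lower at 6 h, 8 to 20 higher and 0 to 2 lower at 24 h, and 3 to 6 higher and 11 to 28 lower from 6 h to 24 h. It gave 0 to 2 lower in MDA-MB-453, 4 to 15 higher for BT20 against MDA-MB-453, 1 to 3 higher and 0 to 1 lower against MCF, and 21 to 26 higher and 8 to 12 lower at 0 min. With the term, KIF23 (-0.12) and MYBL2 (0.03) reversed at 6 h, and PLK1 (0.10), BUB1 (0.03), CENPE (0.11), CENPF (-0.16), KIF11 (0.13), KIF23 (0.13) and PRC1 (0.05) from 6 h to 24 h. With probe sets averaged, MKI67 against MCF (0.02) and CCNB1 at 0 min (-0.05) reversed. At 3 arrays a group, small changes and any change in MCF are hard to detect.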
